A study of Mus musculus with 48 samples.

Results

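The tetraspanin genes followed here, through the stage, induced-cell and single-cell libraries, number 7: Cd63, Cd9, Cd81, Cd82, Cd151, Cd37 and Cd53. They are defined by name, as the gene of the surface antigen that the study used to sort its induced cells together with 6 well-known relatives, and not by a threshold on their measured values. All 7 were among the 22173 genes of the stage count table, the 13682 genes of the table of induced cells and the 32285 genes of the single-cell table. In the mouse annotation (GENCODE vM21, GRCm38, which is mm10) Cd63 lies on chromosome 10 at 128900989 to 128912822 (plus strand), Cd9 on chromosome 6 at 125460266 to 125494791 (minus), Cd81 on chromosome 7 at 143052739 to 143067934 (plus), Cd82 on chromosome 2 at 93419111 to 93463140 (minus), Cd151 on chromosome 7 at 141467392 to 141471473 (plus), Cd37 on chromosome 7 at 45233632 to 45239115 (minus) and Cd53 on chromosome 3 at 106759921 to 106790149 (minus), all as protein-coding genes.

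The study asked whether mouse embryonic stem cells (ESCs) can be turned into cells like the somatic cells of the fetal gonad (gonadal somatic cells, GSCs), the cells that surround and support germ cells. By the labels, the mice and ESCs were C57BL/6. The feeder cells came from another strain, B6C3F1, and were reduced by their adherence before induction. GSCs were separated from female gonads at E12.5, E13.5 and E16.5 and from the ovary at 6 weeks (P6w), with 2 libraries per stage and 12694769 to 22259044 counted reads per library. Female ESCs grown on feeder cells were left untreated (Con) or received vitamin C (Vc), AM580, an agonist of a retinoic acid receptor, or both (V580), with 2 libraries each at 24 h and at 48 h. V580 was also followed to days 4, 6, 8 and 10 with 3 libraries a day, beside 3 libraries of E12.5 female gonad (E12.5_GC). One 10x Genomics library held V580_D6 cells without a CD63 sort. In the study cells positive for SSEA1, a surface marker of pluripotent and germ cells, were removed before induced cells were used for aggregation. The labels do not say whether this was done for the 10x library. The labels do not say which libraries came from separate animals or cultures, so the p-values measure the spread between these libraries, which may be technical. The germ cell libraries taken from aggregates, one set of them made with CD63-sorted cells, are not analysed here.

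Tetraspanins are small membrane proteins that cross the membrane in a fixed pattern and gather integrins, immunoglobulin-domain proteins and proteases into patches of the plasma membrane. CD63 cycles between the surface, late endosomes and lysosomes and, with CD9 and CD81, is widely used as a marker of exosomes; CD9 and CD81 also act in gamete fusion. CD151 and CD82 bind laminin-receptor integrins, whereas CD37 and CD53 are found mainly on leukocytes.

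The stretch just before the annotated start is shown for Cd63, for Cd81, whose level followed that of Cd63 most closely among the family over the 31 FPKM libraries (not over the stages, where Cd82 did), and for Cd9, whose level did not. The windows are from RefSeq and cover up to 250 bases before the start, without bases that lie in exons of the gene. Capitals mark GGGCGG, read on either strand.
Cd63 (GRCm38.p6, chr10:128909095-128909344, plus strand): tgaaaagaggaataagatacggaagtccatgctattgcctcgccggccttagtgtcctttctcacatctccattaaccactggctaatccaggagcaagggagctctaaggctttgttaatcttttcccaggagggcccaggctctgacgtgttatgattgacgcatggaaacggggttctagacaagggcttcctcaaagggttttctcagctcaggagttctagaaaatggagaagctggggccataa
Cd81 (GRCm38.p6, chr7:143052500-143052738, plus strand): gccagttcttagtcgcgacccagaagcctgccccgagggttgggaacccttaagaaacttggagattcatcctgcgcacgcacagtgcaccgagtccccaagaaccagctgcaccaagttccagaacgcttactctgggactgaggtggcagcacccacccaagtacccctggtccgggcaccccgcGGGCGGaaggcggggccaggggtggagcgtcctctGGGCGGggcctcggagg
Cd9 (GRCm38.p6, chr6:125494792-125495010, minus strand): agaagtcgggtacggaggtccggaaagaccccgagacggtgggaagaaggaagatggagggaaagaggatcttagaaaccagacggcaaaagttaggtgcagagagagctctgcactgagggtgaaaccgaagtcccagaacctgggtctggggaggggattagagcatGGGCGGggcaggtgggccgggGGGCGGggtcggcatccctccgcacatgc
The Cd63 window lies inside the annotated gene, outside its exons. It had a GC content of 48.8%, against 65.6% for the Cd81 window and 61.6% for the Cd9 window over all 250 bases, and a median of 52.4% over all windows. GGGCGG, the letters of a GC box, was absent from the Cd63 window and present in 32.7% of the 32851 windows of this length in the table. TATAAA (12.4% of windows), CACGTG (6.02%), AGGTCA (14% of windows, a retinoid receptor half-site) and AGATAA (9.99%, a GATA-type site) were in none of the 3 windows, each searched on both strands.

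Some libraries stood apart or went against their labels. Both E12.5 GSC libraries, labelled as female, held reads of Y-linked genes (at least 97 of Ddx3y, 44 of Kdm5d, 15 of Uty and 7 of Eif2s3y in each). The 6 libraries of the other stages had 0 to 4 reads of Ddx3y, 0 or 1 of Kdm5d, 0 of Uty and 0 to 5 of Eif2s3y. The 2 E16.5 libraries differed from each other far more than other pairs (chi-square per degree of freedom 35.7, against 5.80 to 6.66 at the other stages); E16.5 replicate 2 carries the lane code L1 in its description, as do both P6w libraries, and the other 5 stage libraries carry L5. Among the E12.5_GC libraries, replicate pairs differed by a root mean square of 0.299 to 0.457 on the log2(FPKM + 1) scale, against 0.0913 to 0.149 in the other groups. Their summed haemoglobin and erythroid genes were at 4435, 1693 and 1038 FPKM in replicates 1 to 3. As a check of the labelled tissue, 8 genes of gonadal somatic cells, Amhr2 or Gata4 foremost and none at 0, summed to 1100 to 2369 CPM in the stage libraries and 635 to 688 FPKM in E12.5_GC. On V580_D6 they summed to 87.4 to 94.2 FPKM, with Wt1 foremost. Germ cell genes (6, Dazl foremost) were at 127 and 164 CPM at E16.5 against 6.94 to 29.7 at the other stages. Calls that were lost without 1 of the E12.5, E16.5 or E12.5_GC libraries are named beside their values.

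In the GSCs, Cd63 mRNA was highest at E13.5. The E12.5 libraries held 666 and 683 CPM (reads of the gene, scaled to a common library size), the E13.5 libraries 1329 and 1372, the E16.5 libraries 794 and 1116 and the P6w libraries 693 and 769. The E13.5 libraries lay above all other stage libraries, and both P6w libraries lay between those of E12.5 and E16.5. Against E12.5, Cd63 was 1.00 ± 0.14 higher at E13.5 on the log2 scale (estimate ± SE, edgeR, adjusted p = 6.77e-05) and 0.50 ± 0.14 higher at E16.5 (adjusted p = 0.0125), whereas the P6w estimate of 0.11 ± 0.14 did not pass (adjusted p = 0.52). It fell by 0.50 from E13.5 to E16.5 (adjusted p = 0.0082) and by 0.39 from E16.5 to P6w (adjusted p = 0.0312). The step to E13.5 was 0.35 (adjusted p = 0.0341) and that from E13.5 to E16.5 was 0.03 (adjusted p = 0.868) once a trend with transcript length was taken out of each library, an alternative added after the data had been seen; across genes the E13.5 change fell with transcript length (Spearman rho -0.53), and the median Cd63 transcript of 1063 bases is shorter than most (percentile 12.4). With the lane code in the model, Cd63 was 0.38 lower at P6w than at E12.5 (adjusted p = 0.0303). Both P6w libraries carry L1 and both E12.5 libraries L5, so this lane term rests on the 2 discordant E16.5 libraries alone. For every gene, lane and stage cannot otherwise be told apart between P6w and E12.5. The E16.5 rise lost its call without either E12.5 library (0.48 without replicate 1 and 0.51 without replicate 2, adjusted p = 0.0841 and 0.0629) and was 0.23 without E16.5 replicate 2 and 0.72 without E16.5 replicate 1. The fall to P6w was not called without E16.5 replicate 2 (-0.12, adjusted p = 0.255), and was not called without either P6w library (-0.33 and -0.46). The rise to E13.5 was 0.97 to 1.01 without either E12.5 library and stayed called. The step from E13.5 to E16.5 was -0.27 without E16.5 replicate 1 and -0.76 without E16.5 replicate 2.

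**Figure D1:**
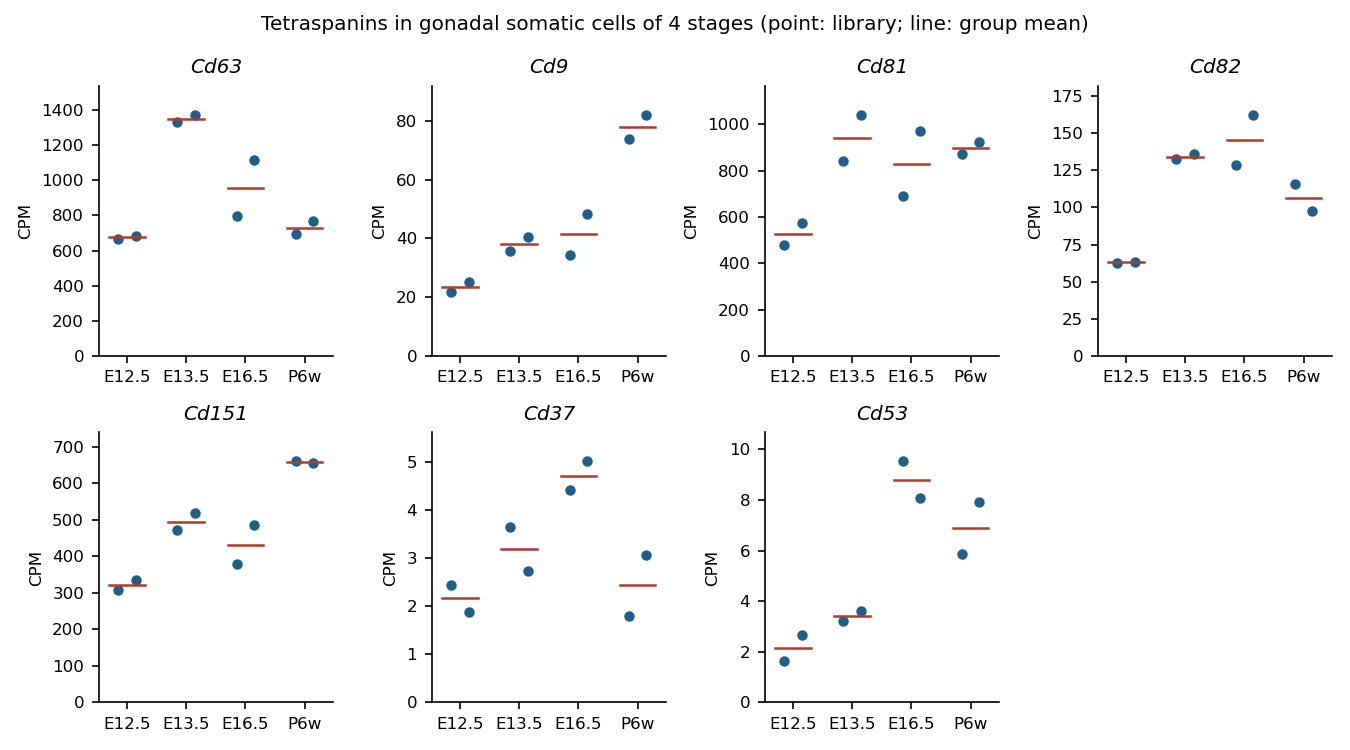
Expression of the 7 tetraspanins in GSCs, in CPM on a linear axis from 0, by stage; points are the 2 libraries of a stage and lines their mean. In these CPM values, from which no transcript length trend was taken out, Cd63 was highest at E13.5 (1329 and 1372) and Cd9 and Cd151 at P6w.

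Cd9 and Cd81, the other tetraspanins much used as exosome markers, were both lowest at E12.5. Cd9 was at 21.9 and 25.2 CPM in the E12.5 libraries, 35.7 and 40.6 in the E13.5, 34.4 and 48.4 in the E16.5 and 73.7 and 82 in the P6w libraries. Its P6w libraries lay above all others: the rise over E12.5 was 1.72 ± 0.17 (adjusted p = 6.96e-07). Cd81 was at 479 and 575 CPM in the E12.5 libraries, 843 and 1040.1 in the E13.5, 689 and 969 in the E16.5 and 871 and 924 in the P6w libraries. Its 6 later libraries lay above both E12.5 libraries but overlapped with each other, and it was higher than at E12.5 at all later stages, by 0.84, 0.65 and 0.77, each ± 0.16 (in stage order, adjusted p = 0.000621, 0.00476 and 0.000863). The Cd9 rise at E13.5 (0.69, adjusted p = 0.00395) was 0.13 without the transcript length trend (adjusted p = 0.556) and 0.58 without E12.5 replicate 1 (adjusted p = 0.0572), the Cd81 rise at E16.5 was 0.52 without E12.5 replicate 1 (adjusted p = 0.0728), and the Cd81 value at P6w was 0.28 with the lane code in the model (adjusted p = 0.229).

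Cd82 and Cd151, the integrin-binding members, were also lowest at E12.5. Cd82 was at 62.7 and 63.4 CPM in the E12.5 libraries, 133 and 136 in the E13.5, 129 and 162 in the E16.5 and 116 and 97.4 in the P6w libraries. It rose over E12.5 at every later stage (1.09 ± 0.14, 1.21 ± 0.14 and 0.76 ± 0.14; adjusted p = 2.23e-05, 7.59e-06 and 0.000258) and fell by 0.45 from E16.5 to P6w (adjusted p = 0.0102, and 0.13 without P6w replicate 2). Cd151 was at 309 and 335 CPM in the E12.5 libraries, 473 and 518 in the E13.5, 378 and 486 in the E16.5 and 661 and 657 in the P6w libraries. It rose to E13.5 (0.62 ± 0.13, adjusted p = 0.00118). Like Cd9, it was highest in the adult ovary, 1.03 ± 0.13 above E12.5 (adjusted p = 8.52e-06) and 0.61 ± 0.13 above E16.5 (adjusted p = 0.00095). Its E16.5 rise over E12.5 (0.42, adjusted p = 0.0178) was lost with the lane code in the model, in a fit of the 2 stages alone, and without either E12.5 library or E16.5 replicate 2.

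The leukocyte members were scarce. Cd53 was at 1.62 and 2.67 CPM in the E12.5 libraries (35 and 54 reads), 3.20 and 3.59 in the E13.5, 9.52 and 8.08 in the E16.5 and 5.88 and 7.91 in the P6w libraries. The E16.5 and P6w libraries lay above the earlier ones, by 2.04 ± 0.30 and 1.69 ± 0.31 against E12.5 (adjusted p = 9.02e-05 and 0.000302), and Cd53 also rose from E13.5 to E16.5 (1.38 ± 0.29, adjusted p = 0.000955). Cd37 was between 1.80 and 5.02 CPM, with at least 22 reads in each library; it passed at E16.5 against E12.5 (1.11 ± 0.34, adjusted p = 0.0191) and fell from E16.5 to P6w (-0.95, adjusted p = 0.0348), the first call lost with the lane code or without either E12.5 library or E16.5 replicate 2, the second with DESeq2 or without E16.5 replicate 2 or P6w replicate 1. Over the same stages the summed level of 9 macrophage genes went from 66.7 and 70.1 CPM at E12.5 to 107 and 108, 118 and 120, and 164 and 172 at P6w (most abundant Csf1r, Laptm5 or C1qb, none at 0), 5 mast cell genes were at 524 and 526 CPM at E16.5 against 1.07 to 24.8 at the other stages (Cma1 or Tpsb2 foremost there, with 0 or 1 of the 5 at 0), and 6 lymphocyte genes at 3.98 to 10.5 CPM (Cd79a or Cd79b foremost; none at 0 at P6w, 1 to 3 of the 6 at 0 in the fetal libraries). Their part in the Cd53, Cd37 and Cd63 levels was not tested. In bulk libraries, fewer cells of a type and less RNA per cell cannot be told apart.

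Counted together, 5 of the 7 genes were called at E13.5 against E12.5, all higher, where 45.9% of the 16398 genes tested were called and 23.8% were called higher. All 7 have shorter transcripts than most genes (percentiles 12.4 to 29.2), and with the transcript length trend taken out 4 were called at E13.5, with a median of 0.35 and a background of 29.7%. At E16.5 against E12.5 all 7 were called higher (background 37.6%, and 20.5% higher), and in the P6w libraries 5 were called higher (52.9%, and 25.4% higher). Without E12.5 replicate 1 or 2 the E16.5 count was 3 or 4. The median change of the 7 genes was 0.69, 0.81 and 0.77 in these 3 comparisons, which share the E12.5 libraries, while the median of all genes tested lay between -0.04 and 0.03. From E13.5 to E16.5, 2 were called, Cd53 higher and Cd63 lower (54.1% of genes), and 4 without E16.5 replicate 2. From E16.5 to P6w 5 were called, Cd9 and Cd151 higher and Cd63, Cd82 and Cd37 lower (56.1% of genes), and 3 without either P6w library. At least 2-fold and called were 2, 3, 3, 1 and 0 members in these 5 comparisons, where 17.0%, 16.8%, 30.0%, 26.1% and 32.6% of genes were.

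In cells induced by V580, Cd63 rose from day 6 to day 10. It was at 50.5, 49.0 and 46.2 FPKM (fragments per kilobase of gene, scaled to library depth) on day 4, 54.1, 51.3 and 52.9 on day 6, 71.0, 66.4 and 67.4 on day 8, and 101.7, 92.6 and 98.6 on day 10. No library of days 4, 6, 8 and 10 overlapped with those of another of these days. On the log2(FPKM + 1) scale the day 4 to day 6 estimate was 0.12 ± 0.12 (limma, adjusted p = 0.47, or 0.21 and called under quantile normalization, adjusted p = 0.0466), the rise from day 6 to day 8 was 0.37 ± 0.12 (adjusted p = 0.0286) and that from day 8 to day 10 was 0.51 ± 0.12 (adjusted p = 0.00572). The rise to day 8 lost its call without any 1 of the 6 libraries compared (estimates 0.34 to 0.38, adjusted p from 0.0550 to 0.0860). The SE of each gene was pooled over days 4, 6, 8 and 10 and E12.5_GC. For Cd63 the E12.5_GC libraries spread most (SD 16.54 FPKM, against 1.38 to 4.62 on the days). These SEs and p-values are therefore not set by the spread of the V580 libraries alone.

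Day 6 is the time at which the study sorted its cells, and there the Cd63 level lay among those of the E12.5_GC libraries. E12.5_GC held 56.2, 81.8 and 50.9 FPKM of Cd63, and all 3 day 6 libraries fell between the lowest and the highest of these. The day 6 estimate against E12.5_GC was -0.22 ± 0.12 (adjusted p = 0.13), and Cd63 was lower on day 4 (-0.34 ± 0.12, adjusted p = 0.0243, lost without day 4 replicate 2 or 3), while day 8 gave 0.15 ± 0.12 (adjusted p = 0.319, or 0.26 and called under quantile normalization, adjusted p = 0.0132) and day 10 was higher (0.65 ± 0.12, adjusted p = 0.000269). These 4 comparisons share the E12.5_GC libraries. Without E12.5_GC replicate 2 they became -0.14 on day 4 (adjusted p = 0.063), -0.02 on day 6 (adjusted p = 0.808), 0.35 on day 8 (adjusted p = 0.000241) and 0.86 on day 10. Without E12.5_GC replicate 3 the day 6 value was -0.36 and called (adjusted p = 0.0082).

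**Figure D2:**
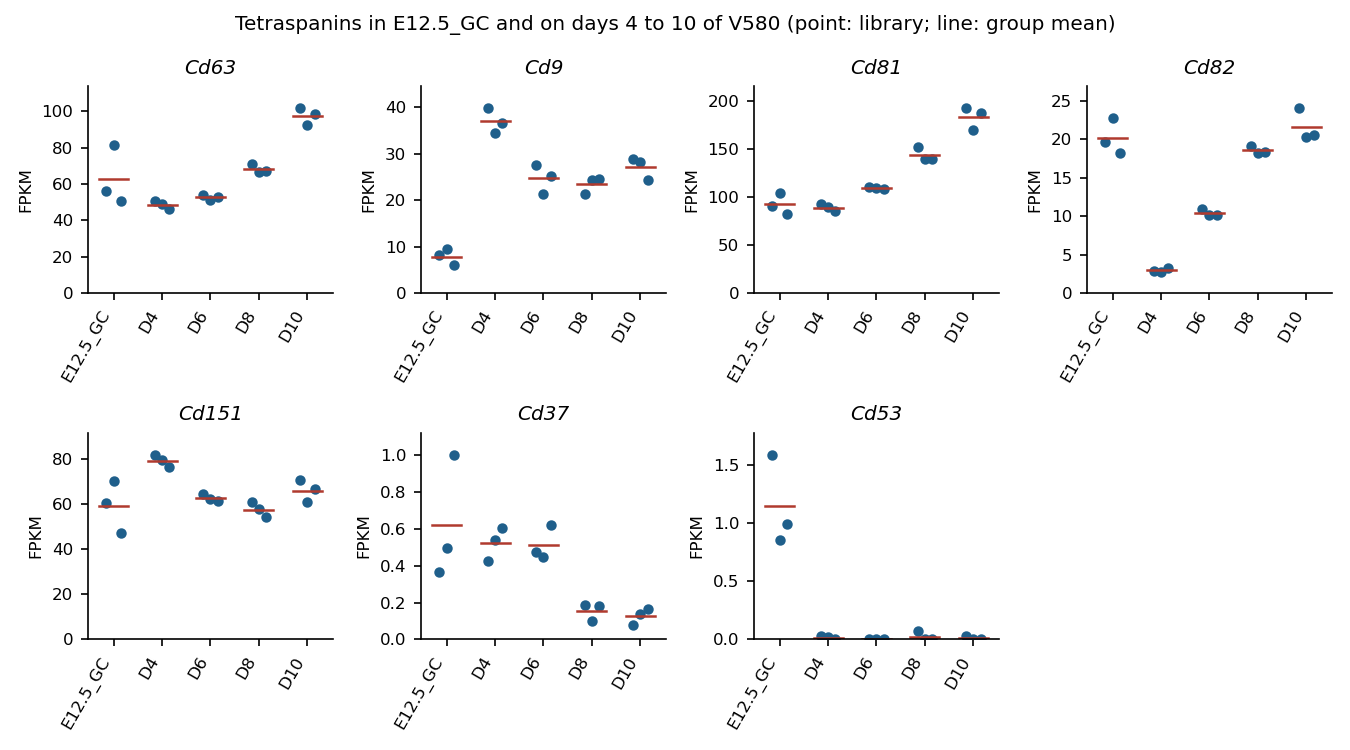
Expression of the 7 tetraspanins in E12.5_GC and on days 4, 6, 8 and 10 of V580, in FPKM on linear axes from 0; points are the 3 libraries of a group and lines their mean. Cd63 and Cd81 rose to day 10, Cd9 stayed above E12.5_GC, and Cd82 climbed from about 3 FPKM on day 4 to between 20.4 and 24 on day 10.

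Cd81 also rose from day to day. It was at 92.3, 89.5 and 85.1 FPKM on day 4, 110.5, 109 and 109 on day 6, 153, 140 and 139 on day 8, and 192, 170 and 188 on day 10, beside 90.5, 105 and 82 in E12.5_GC. Every step between days passed (0.30, 0.39 and 0.35, each ± 0.08; adjusted p = 0.0107, 0.00206 and 0.00605). Over the same days 7 interstitial genes (Col1a1 foremost, none at 0) summed to 73.4 to 84.9 FPKM on day 4, 181 to 190 on day 6, 537 to 680 on day 8 and 1398 to 1721 on day 10. Mesothelial genes (7, Krt19 foremost, none at 0) summed to 194 to 224, 316 to 328, 437 to 471 and 428 to 463 FPKM on these days. The part of these lists in the Cd63 and Cd81 rises was not tested. Cd81 was above E12.5_GC by 0.25 on day 6, 0.64 on day 8 and 0.99 on day 10 (adjusted p = 0.0176, 1.19e-05 and 8.56e-08), the first of them lost without E12.5_GC replicate 3 (0.17, adjusted p = 0.0555).

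Cd9 was higher than in the gonad on all 4 V580 days, and Cd82 was lower on days 4 and 6. Cd9 was at 8.15, 9.43 and 5.97 FPKM in E12.5_GC, against 39.8, 34.5 and 36.7 on day 4, 27.7, 21.3 and 25.1 on day 6, 21.4, 24.4 and 24.6 on day 8, and 28.8, 28.3 and 24.3 on day 10. No V580 library came near the gonad range, and the differences were 2.12 ± 0.13, 1.55 ± 0.13, 1.48 ± 0.13 and 1.68 ± 0.13 (adjusted p = 1.41e-09, 7.04e-08, 1.33e-07 and 2.54e-08). It fell by 0.57 from day 4 to day 6 (adjusted p = 0.00253). Cd82 was at 19.6, 22.8 and 18.3 FPKM in E12.5_GC but 2.86, 2.72 and 3.22 on day 4 and 10.9, 10.2 and 10.1 on day 6. By day 8 (19.1, 18.3 and 18.3) and day 10 (24, 20.4 and 20.6) its libraries overlapped with the gonad. Cd82 was lower on day 4 (-2.43 ± 0.08, adjusted p = 1.98e-12) and day 6 (-0.89 ± 0.08, adjusted p = 2.51e-07). It rose by 1.54 from day 4 to 6 and 0.78 from day 6 to 8 (adjusted p = 2.47e-09 and 4.92e-06). Over the 4 V580 days 7 extraembryonic endoderm genes (Lama1 or Dab2 foremost) summed to 58.7 to 86.3 FPKM, against 29.7 to 40.5 in E12.5_GC. Granulosa genes (8, Wnt6, Wnt4 or Amhr2 foremost) summed to 57.1 to 142 FPKM, against 655 to 788 in E12.5_GC. None of either list was at 0, and their part in the Cd9 and Cd82 differences was not tested.

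Cd151 was between 54.3 and 82 FPKM on the 4 V580 days and from 47.0 to 70.1 in E12.5_GC. It was higher than E12.5_GC on day 4 (0.43 ± 0.11, adjusted p = 0.00246) and fell from day 4 to day 6 (-0.33 ± 0.11, adjusted p = 0.0232), the latter call lost without day 4 replicate 1 or 2 or day 6 replicate 2 or 3. Cd37 and Cd53 did not pass the filter of 1 FPKM in 3 libraries and were not tested. Cd53 was at 1.59, 0.86 and 1.00 FPKM in E12.5_GC, an estimated 34.0 to 77.0 fragments, and at 0.00 to 0.07 FPKM in the 12 V580 libraries. Beside it, 9 macrophage genes summed to 50.2, 53.6 and 28.0 FPKM in E12.5_GC (C1qb foremost, none at 0) and to 1.14 to 2.49 FPKM on the V580 days (Csf1r or Laptm5 foremost, 1 to 7 of the 9 listed at 0); their part in the Cd53 difference was not tested.

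Of the 5 genes tested, 4 were called on day 4 against E12.5_GC (background 71.6% of 11512 genes), 3 on day 6 (67.0%), 2 on day 8 (63.2%) and 3 on day 10 (69.5%, and all 5 without E12.5_GC replicate 2). Between days, 4 were called from day 4 to 6 (44.9% of genes), 3 from day 6 to 8 (41.1%) and 2 from day 8 to 10 (34.5%). At least 2-fold and called were 2, 1, 1 and 1 members against E12.5_GC on the 4 days, with 20.4%, 15.2%, 13% and 16.4% of genes, and 1, 0 and 0 between days, with 5.08%, 2.55% and 1.29%.

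In the first 48 h the levels differed with time in culture and with treatment. Untreated cells held 47.0 and 52.9 FPKM of Cd63 at 24 h and 25.7 and 27.2 at 48 h, and no library of one time overlapped with the other. From 24 h to 48 h in Con, Cd63 fell by 0.89, Cd9 by 1.49, Cd81 by 0.59, Cd82 by 0.54, Cd151 by 0.51 and Cd37 by 0.79 (SE 0.05 to 0.09; adjusted p from 7.59e-12 to 7.65e-05), so that all 6 genes tested fell, where 66.0% of 10644 genes were called and 33.6% were lower; 1 of the 6, Cd9, fell at least 2-fold on the log2(FPKM + 1) scale, with 7.72% of genes called at that size. This scale understates the change of low genes: as plain ratios of mean FPKM, Cd82 (1.02 to 0.39) and Cd37 (1.37 to 0.37) were at 0.38 and 0.27 of their 24 h level. Time cannot be told apart here from whatever else differed between the 24 h and 48 h cultures. Pluripotency genes (6, Pou5f1 foremost, none at 0) summed to 849 and 915 FPKM in Con at 24 h and 505 and 518 at 48 h. Interstitial genes (7, Col1a1 foremost, none at 0), among them collagens that fibroblasts such as feeder cells also express, summed to 129 and 119 FPKM at 24 h and 31.2 and 32.6 at 48 h. Of the 5 of them tested, 4 fell and 1 rose. Macrophage genes (9, nearly all of it Laptm5, 1 to 3 of the 9 listed at 0) summed to 78.8 and 78.5 FPKM at 24 h and 7.68 and 9.12 at 48 h. The part of these lists in the fall was not tested.

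**Figure D3:**
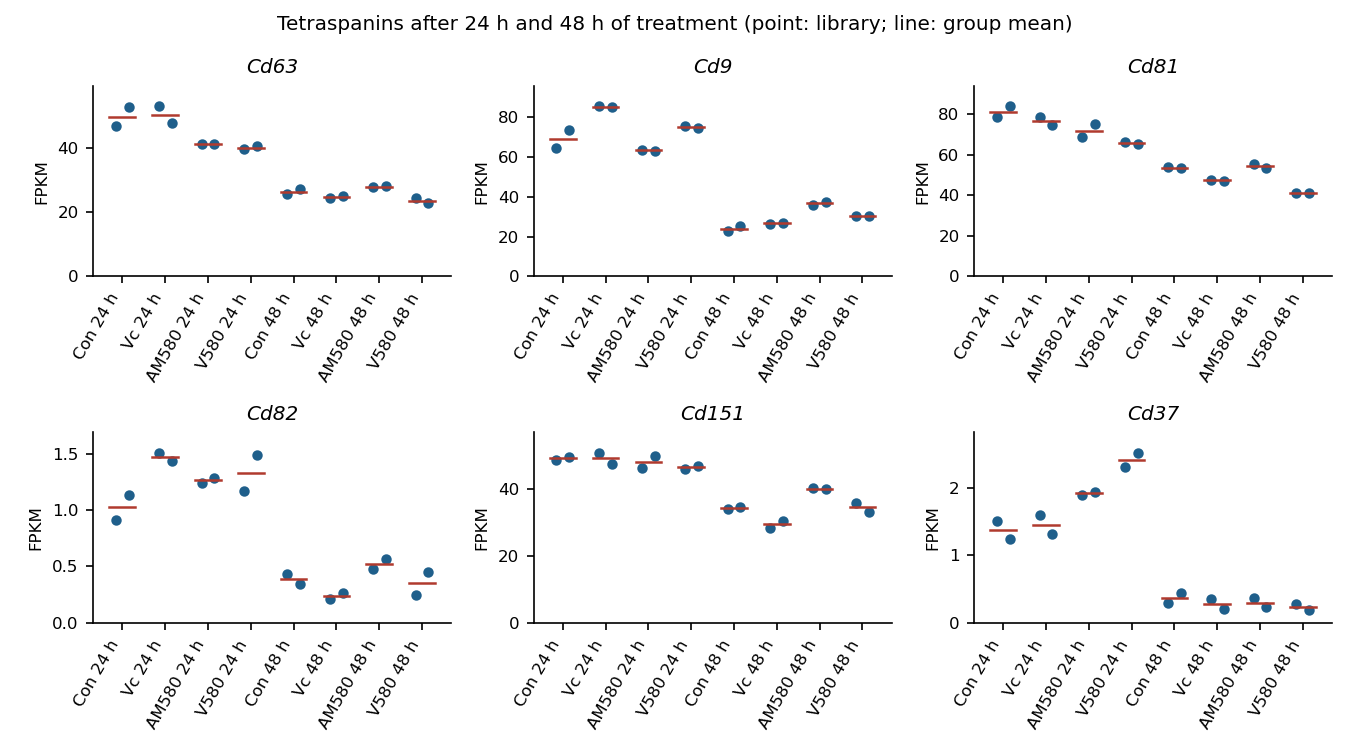
Expression of 6 tetraspanins in untreated (Con), Vc, AM580 and V580 cells at 24 h and 48 h, in FPKM on linear axes from 0; points are the 2 libraries of a group and lines their mean. Levels at 48 h lay below those at 24 h for all 6 genes under every treatment; Cd53 (0 to 0.15 FPKM) is left out.

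At 24 h, both treatments with AM580 lowered Cd63. It was at 41.2 and 41.3 FPKM with AM580 and 39.8 and 40.7 with V580, all below the 47.0 and 52.9 of Con, whereas Vc alone gave 53.1 and 47.9 and overlapped with Con. The changes against Con were -0.27 ± 0.06 for AM580 and -0.30 ± 0.06 for V580 (adjusted p = 0.00546 and 0.00123), and Vc gave 0.02 ± 0.06 (adjusted p = 0.887). Without Con_24h replicate 2 the AM580 value was -0.18 and not called (adjusted p = 0.0854). Cd81 went the same way, with 78.8 and 84.0 FPKM in Con, 68.9 and 75.1 with AM580 and 66.4 and 65.4 with V580 (-0.17 and -0.30, adjusted p = 0.017 and 0.000167); the AM580 value was lost without Con_24h replicate 2 or AM580_24h replicate 1 (-0.13 and -0.11). Cd37 rose, from 1.5 and 1.24 FPKM in Con to 1.90 and 1.94 with AM580 and 2.31 and 2.52 with V580 (0.30 and 0.53, adjusted p = 0.0346 and 0.000453). It had an estimated 76.0 to 198 fragments per 24 h library. The AM580 call was lost without Con_24h replicate 2 or either AM580_24h library, and with a pseudocount of 0.1. At this time 9 macrophage genes summed to 76.3 to 85.3 FPKM in all 8 libraries, nearly all of it Laptm5 (75.4 to 84.0 FPKM), with 1 to 3 of the 9 listed at 0. Vc alone raised Cd9, from 64.5 and 73.4 FPKM in Con to 85.5 and 85.3 (0.31 ± 0.06, adjusted p = 0.00229), and Cd82, from 0.91 and 1.14 FPKM to 1.51 and 1.44 (0.29 ± 0.09, adjusted p = 0.0423), the latter lost with a pseudocount of 0.1 and without Con_24h replicate 1 or either Vc_24h library.

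At 48 h, V580 lowered Cd63 and Cd81, and AM580 alone gave no call for either. Cd63 was at 24.4 and 22.9 FPKM with V580, below the 25.7 and 27.2 of Con (-0.16 ± 0.06, adjusted p = 0.0302), and at 27.8 and 28.2 with AM580 (0.08 ± 0.06, adjusted p = 0.269, or 0.14 and called under quantile normalization, adjusted p = 0.0259). The V580 value lost its call without Con_48h replicate 2 or V580_48h replicate 2 and under quantile normalization (-0.09, adjusted p = 0.111). Cd81 was at 41.2 and 41.1 FPKM with V580 against 53.8 and 53.6 in Con (-0.38 ± 0.05, adjusted p = 6.61e-06), and at 55.5 and 53.4 with AM580. Cd9 was raised by AM580 and by V580, from 22.6 and 25.1 FPKM in Con to 36.0 and 37.6 and to 30.5 and 30.4 (0.60 and 0.34, adjusted p = 4.04e-07 and 0.000119). Beside it, 7 extraembryonic endoderm genes (Dab2 foremost, none at 0) summed to 5.39 and 6.02 FPKM in Con. They summed to 22.6 and 21.9 FPKM with AM580 and to 13.2 and 11.3 with V580. Their part in the Cd9 rise was not tested. Vc alone lowered Cd81 (47.5 and 47.2 FPKM; -0.18, adjusted p = 0.0196) and Cd151 (28.2 and 30.5 FPKM against 34.0 and 34.4; -0.22, adjusted p = 0.0129), and AM580 raised Cd151 to 40.1 and 39.97 FPKM (0.22, adjusted p = 0.0019). The 2 calls for Vc numbered 1 or 0 when any 1 of the 4 libraries was left out.

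Adding Vc to AM580 was tested directly by comparing V580 with AM580. At 24 h it raised Cd9 (63.7 and 63.1 FPKM with AM580, 75.6 and 74.8 with V580; 0.24 ± 0.06, adjusted p = 0.00888), a call lost without any 1 of the 4 libraries (adjusted p from 0.0501 to 0.0622). At 48 h V580 lay below AM580 for Cd63 (-0.24 ± 0.06, adjusted p = 0.0105), Cd81 (-0.40 ± 0.05, adjusted p = 2.73e-05), Cd9 (-0.27 ± 0.06, adjusted p = 0.00384) and Cd151 (-0.21 ± 0.05, adjusted p = 0.00944). For each of these 4 genes the libraries of the 2 treatments did not overlap. In the same comparison (background 19.2% of genes called) all 7 extraembryonic endoderm genes tested were lower. Of 4 mesothelial genes tested 3 were lower and 1 higher, and of 5 interstitial genes 1 was lower and 4 higher. The part of these lists in the lower tetraspanin levels was not tested. Without V580_48h replicate 2 the Cd63 and Cd151 calls were lost (-0.19 and -0.15), leaving 2; the Cd63 call was also lost without AM580_48h replicate 2 and the Cd151 call without AM580_48h replicate 1.

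Of the 6 genes tested, 2 were called for Vc, 3 for AM580 and 3 for V580 against Con at 24 h, where 13.6%, 14.8% and 29.0% of genes were called. At 48 h the counts were 2, 2 and 3 against backgrounds of 12.4%, 57.0% and 57.1%, and V580 against AM580 gave 1 at 24 h (14.8%) and 4 at 48 h (19.2%). Without Con_24h replicate 2 or AM580_24h replicate 1 the AM580 count at 24 h was 0 or 1, and without Con_24h replicate 1 or either Vc_24h library the Vc count was 1. None of these changes against Con or between V580 and AM580 reached 2-fold on the log2(FPKM + 1) scale, a size at which 0.0846%, 0.404% and 0.695% of genes were called for Vc, AM580 and V580 at 24 h, 0.047%, 3.23% and 3.18% at 48 h, and 0.0658% and 0.263% between V580 and AM580. With all 31 libraries in one model, in which the E12.5_GC spread enters the error, Vc and AM580 at 24 h and Vc at 48 h had 0 calls, and none of the 4 called Cd63 changes passed (adjusted p from 0.117 to 0.34).

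After 48 h all 6 tested genes rose to day 4 of V580. The 48 h group has 2 libraries and day 4 has 3, and time cannot be told apart from other differences between these cultures. Cd63 went from 24.4 and 22.9 FPKM to 46.2 to 50.5 (1.01 ± 0.11, adjusted p = 2.47e-08), Cd81 from 41.2 and 41.1 to 85.1 to 92.3 (1.09 ± 0.07, adjusted p = 4.03e-12), Cd151 from 35.9 and 33.1 to 76.5 to 82 (1.18 ± 0.10, adjusted p = 1.7e-10) and Cd82 from 0.25 and 0.46 to 2.72 to 3.22 (1.54 ± 0.09, adjusted p = 2.74e-13). Cd9 (0.27) and Cd37 (0.30) also passed (adjusted p = 0.0427 and 0.0154), but the first lost its call without V580_48h replicate 1 or 2 or day 4 replicate 1 or 3 and the second without V580_48h replicate 2 or day 4 replicate 3. In this comparison 74.1% of 11921 genes were called and 39.4% were called higher, and 15.6% were called at 2-fold or more on the log2(FPKM + 1) scale, as were 4 of the 6. As plain ratios of mean FPKM, Cd82 (0.35 to 2.93) was 8.32-fold higher, and Cd37 (0.24 to 0.52) was also above 2-fold, at 2.22. Over this step 6 pluripotency genes summed to 265 and 269 FPKM at 48 h and 21.3 to 24.3 on day 4 (Pou5f1, then Zfp42 foremost), 7 extraembryonic endoderm genes to 11.3 and 13.2 and then 58.7 to 68.7 (Dab2, then Lama1), and 7 mesothelial genes to 26.4 and 27.3 and then 194 to 224 (Wt1, then Krt19), with none of these genes at 0. The 7 interstitial genes went from 39.3 and 40.3 to 73.4 to 84.9 FPKM. The part of these lists in the rises was not tested.

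**Figure D4:**
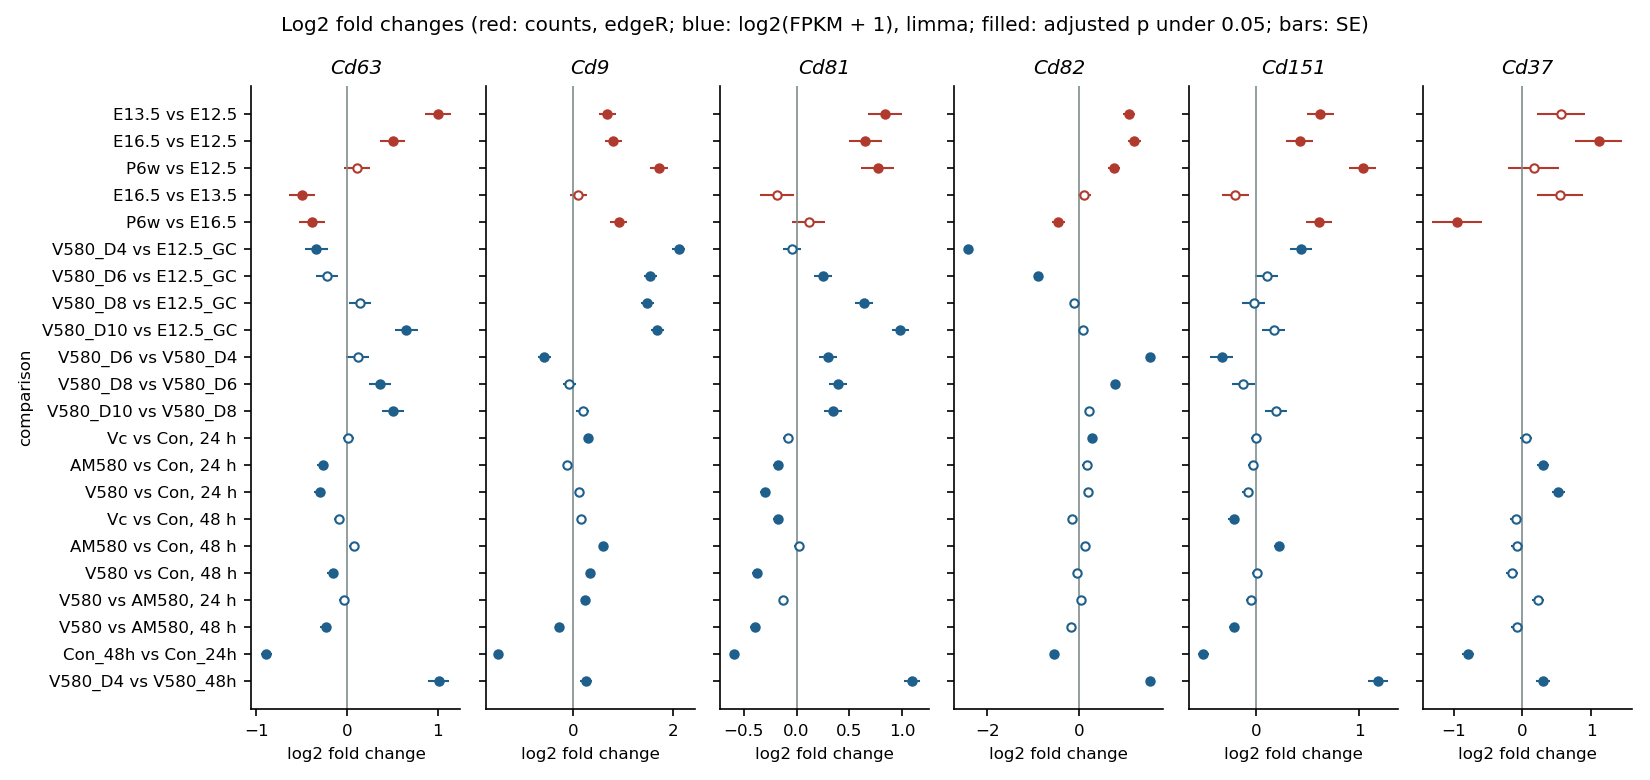
Log2 fold changes of 6 tetraspanins in all 22 comparisons, with each gene on its own axis; red points are edgeR estimates from counts, blue points limma estimates from log2(FPKM + 1), bars are SE and filled points have an adjusted p below 0.05. Cd63 fell by 0.89 from Con_24h to Con_48h and rose by 1.01 from V580_48h to V580_D4, its largest changes in the FPKM libraries. Cd37 has no point between V580 days or between these days and E12.5_GC, where it was not tested.

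Over the 13 groups of the FPKM table Cd63 was highest on V580_D10 (97.6 ± 4.62 FPKM, mean ± SD, n = 3). V580_D8 (68.3 ± 2.42) and E12.5_GC (62.9 ± 16.54) followed, then V580_D6 (52.8 ± 1.38), Vc_24h (50.5 ± 3.71), Con_24h (49.9 ± 4.17) and V580_D4 (48.6 ± 2.17). Neighbours in this order from V580_D8 to V580_D4 overlapped, each with the next. AM580_24h (41.3) and V580_24h (40.3) came below them, and the 48 h groups closed the order at 28.0 for AM580, 26.5 for Con, 24.9 for Vc and 23.6 for V580. The 48 h groups lay apart from all others by at least 12.3 FPKM between means. Cd63 was an abundant mRNA in every group: its mean was above that of 83.7% to 97.4% of the genes in the table.

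Levels of different members can be compared only per length, and the length used matters here. The joined length of all exons, over which most low FPKM values came out as whole fragments, is 3682 bases for Cd63 against a median transcript of 1063, and 2879 against 1533 for Cd81. In FPKM, Cd81 stood above Cd63 in E12.5_GC (92.4 against 62.9). Rescaled to the median transcript length, Cd63 stood above Cd81 there (218 against 174), below it on V580_D6 (183 against 206) and beside it on V580_D10 (338 against 344). On both lengths Cd63, Cd81 and Cd151 were the most abundant members in E12.5_GC and on V580_D6, followed by Cd82 and then Cd9 in the gonad and by Cd9 and then Cd82 on V580_D6.

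The genes whose level was most like that of Cd63 over the 31 FPKM libraries, by Pearson's r of log2(FPKM + 1) among 11818 genes, were Mgat1 (0.974), an enzyme of N-glycan processing, Plod3 (0.970), a lysyl hydroxylase, Pttg1ip (0.967), Atp9a (0.967) and Dynlt3 (0.964). Cd81 ranked 7 (0.960), while Cd82 (0.873) and Cd151 (0.812) ranked 228 and 661. Cd9 (-0.19) and Cd37 (-0.10) did not follow Cd63. Over the 8 stage libraries the leading genes were Atp6v0c (0.997), a subunit of the lysosomal proton pump, Srp14 (0.993), Tmem203 (0.991), Gadl1 (0.990) and Otub1 (0.989), with Cd82 at 0.72 and Cd81 at 0.67. These values describe libraries that share groups, handling and, in the stages, a trend with transcript length.

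The other tetraspanins were taken as a list of 24 genes. At P6w against E12.5, 22 were tested, of which 5 rose and 13 fell (background 52.9% of genes called), with a median of -0.70 against -0.04 for all genes. Without 1 library, 4 to 5 rose and 10 to 12 fell; for this list and the next ones, leaving out libraries or the length trend was added after the data had been seen. The largest changes were in Tspan32 (21.8 to 1.49 CPM, -3.87 ± 0.27, adjusted p = 1.07e-08), a haematopoietic tetraspanin, Tspan1 (0.58 to 5.07 CPM, 3.12 ± 0.43, adjusted p = 2.28e-05) and Tspan33 (8.86 to 1.08 CPM, -3.04 ± 0.33, adjusted p = 1.7e-06), known from erythroid and B cells. Haemoglobin and erythroid genes (8) summed to 14275 and 15669 CPM at E12.5 and 264 and 294 at P6w, and their part in this was not tested. At E13.5 and E16.5 against E12.5 the list had 11 and 8 that rose and 3 and 2 that fell (backgrounds 45.9% and 37.6%), the former 6 and 2 without E12.5 replicate 1 and 4 and 3 without the transcript length trend, with 9 and 5 from E13.5 to E16.5 (54.1%) and 2 and 14 from E16.5 to P6w (56.1%). On V580_D6 against E12.5_GC, 7 of 20 rose and 8 fell, a share near the background of 67.0%. They were led by Upk1a (0.25 to 13.9 FPKM, 3.57 ± 0.10, adjusted p = 2.23e-13), a uroplakin, Tspan18 (10.96 to 0.87 FPKM, -2.66) and Tspan7 (12.6 to 2.19 FPKM, -2.09). With V580 against Con at 48 h, 9 of 16 rose and 3 fell (57.1%).

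Of the genes of proteins known to bind tetraspanins (19), 10 rose and none fell at E16.5 against E12.5 (background 37.6% of genes called, and 20.5% higher), with a median of 0.47 against -0.01 for all genes, and 7 to 9 rose and none fell when 1 library was left out. From E13.5 to E16.5, 11 rose and 1 fell (54.1%), and 2 rose and 9 fell from there to P6w (56.1%). With the transcript length trend taken out, 8 rose and 2 fell from E13.5 to E16.5 (46.9%), while E16.5 against E12.5 again had 10 and 0. The mast cell genes described above were also highest at E16.5, and 8 interstitial genes (Col1a1 foremost there, none at 0) summed to 3274 and 2967 CPM at E16.5 against 445 to 971 at the other stages. The part of either in this was not tested. At P6w against E12.5, 5 rose and 6 fell, near the background of 52.9%; among them were Itga6 (250 to 35.4 CPM, -2.82 ± 0.15), the laminin-receptor chain that binds CD151, and Itga7 (0.42 to 2.13 CPM, 2.36 ± 0.74), the latter not called without E12.5 replicate 1 or P6w replicate 1. Without P6w replicate 1 these counts were 3 and 4. On V580_D6 against E12.5_GC, 5 of 14 rose and 6 fell (67.0%), with the same counts whichever of the 6 libraries was left out, led by Epcam (5.35 to 84.9 FPKM, 3.77 ± 0.09), Itga3 (14.7 to 101.5 FPKM, 2.71 ± 0.07), the usual partner chain of CD151, and Itgb4 (0.75 to 6.07 FPKM, 2.02 ± 0.07). With V580 against Con at 48 h, 6 of 14 rose and 7 fell (57.1%), with Itga6 (-0.83), Itga5 (0.83) and Cd44 (-0.47) foremost.

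Endosome and exosome genes (19) encode the machinery that sorts CD63 into vesicles and lysosomes. At P6w against E12.5, 7 rose and 3 fell, a share near the background of 52.9%, led by Rab27a (5.85 to 16.6 CPM, 1.504 ± 0.23), a GTPase of vesicle docking, Sdc4 (359 to 970 CPM, 1.44 ± 0.18) and Flot1 (64.5 to 126 CPM, 0.97 ± 0.14). On V580_D6 against E12.5_GC, 5 of 18 rose and 7 fell, a share near the background of 67.0%, with Rab27b (0.38 to 1.85 FPKM, 1.05 ± 0.06), Chmp4b (123 to 63 FPKM, -0.94 ± 0.10) and Lamp2 (31.4 to 19.2 FPKM, -0.67 ± 0.07) foremost. With V580 against Con at 48 h, 3 of 17 rose and 3 fell (57.1%), or 1 and 3 without Con_48h replicate 1 or V580_48h replicate 2. Sdc4 (30.6 to 11.8 FPKM, -1.31 ± 0.04), Flot2 (0.22) and Rab7 (-0.21) moved most. From 24 h to 48 h in Con, where Cd63 fell, 1 of 17 rose and 12 fell (66.0% called, and 33.6% lower). From V580_48h to V580_D4, where Cd63 rose, 12 of 18 rose and 2 fell (74.1% called, and 39.4% higher). A link of these counts with Cd63 was not tested.

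The single-cell library of V580_D6 gives the spread of the family over cells before any CD63 sort. It held 15412 barcodes, of which 15315 were kept after 97 with over 40% mitochondrial UMIs (unique molecular identifiers, counted molecules) were removed, with medians of 9281 UMIs and 3074 genes per cell. The study describes repeated runs of this experiment, but the deposited table has 1 set of barcodes, all with the same suffix, and no map to runs, so it was taken as 1 library. No test between conditions was made, and the exact 95% intervals below cover counting error only. Cd63 was at 461 CPM (457 to 464) and was seen in 77.1% of cells (76.4 to 77.8), and Cd81 at 494 CPM in 76.1%. Cd9 was at 96.4 CPM in 29.0% of cells, Cd151 at 74.9 CPM in 41.3% and Cd82 at 13.45 CPM in 9.77%. Of the leukocyte members, Cd37 had 38 UMIs in 35 cells and Cd53 none in 15315 cells, which, taken as 3 counts of the total and not as an interval, allows up to 0.0196% of cells with a UMI and a level of up to 0.0184 CPM and limits detection, not expression. Cd63 UMIs numbered 0 in 3509 cells, 1 in 2251, 2 in 1455 and 3 or more in 8100, with a median of 3 and a maximum of 104.

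The share of cells with a Cd63 UMI followed their depth. In cluster 1, led by Gm42418 and AY036118 and with a median of 1457 UMIs, 43.7% of cells had a Cd63 UMI, and in cluster 2, with 12119.5 UMIs, 96.3% had one. When each cell was thinned to 1100 UMIs (14054 cells; 1261 shallower cells left out) these shares were 30.2% and 32.3%, and over all cells 35.2%. After thinning, Cd81 was seen in 38.4% of cells, Cd9 in 7.94%, Cd151 in 7.21% and Cd82 in 1.17%. Cells with UMIs of both Cd63 and Cd81 made up 14.4% of the thinned cells, and cells with none of the 7 genes 35.4%. Before thinning, 66.6% of cells had UMIs of both Cd63 and Cd81. A missing UMI at 1100 UMIs per cell is therefore not taken as absence of the mRNA. None of the cell types fixed here is known to lack Cd63, so no background share from such cells can be given; summed macrophage, mast cell and lymphocyte genes were at most 9.39, 0.46 and 3.08 CPM in any cluster.

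**Figure D5:**
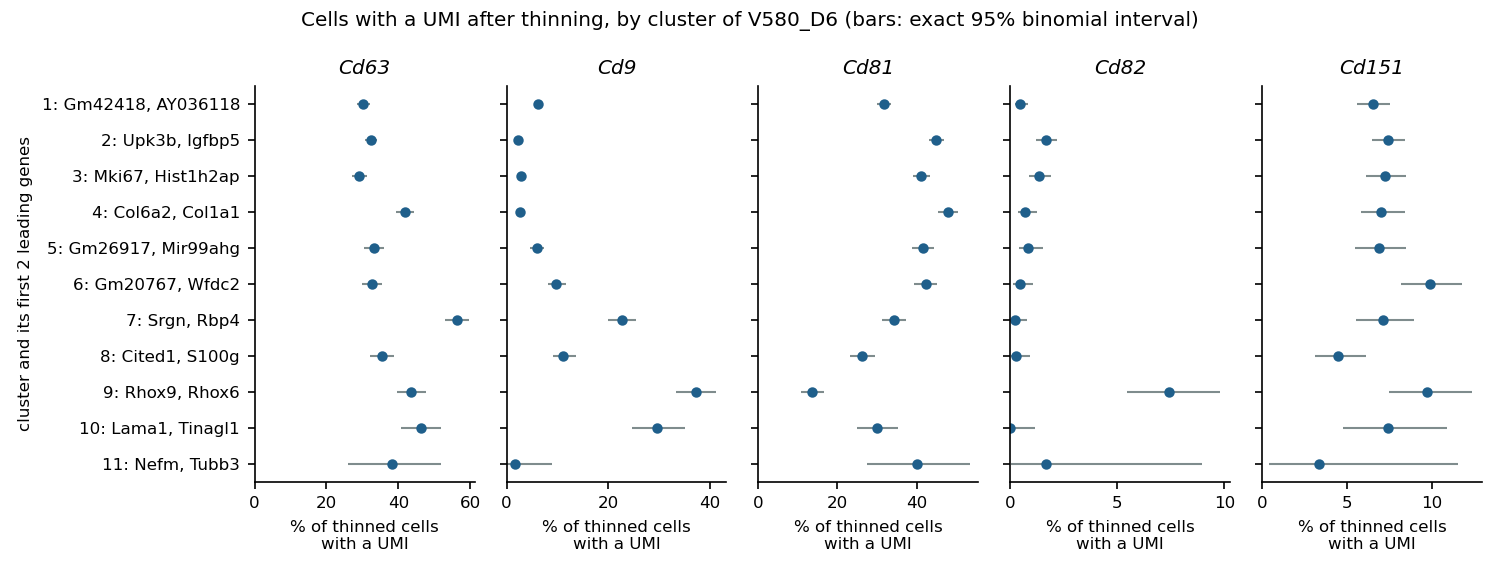
Share of thinned V580_D6 cells (1100 UMIs each) with a UMI of each tetraspanin, in percent on linear axes from 0, for the 11 clusters; points are shares and bars exact 95% binomial intervals. Cd63 was seen most in cluster 7 (56.3%), Cd9 and Cd82 most in cluster 9, and Cd81 least in cluster 9.

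The cells fell into 11 clusters, built without the 7 genes. By the markers used, cluster 2 (2968 cells, led by Upk3b and Igfbp5) was mesothelial-like, cluster 4 (1553 cells, Col6a2 and Col1a1) interstitial-like and cluster 11 (66 cells, Nefm and Tubb3) neuron-like. The others are given by number and leading genes. The mesothelial name is not particular to cluster 2. Its 7 mesothelial genes summed to 925 CPM, against 804 in cluster 3, 823 in cluster 5 and 984 in cluster 9, where Krt19 made up most. Clusters 1, 5, 8, 9 and 10 had median UMI counts of 0.16 to 0.33 of the overall median, and cluster 7 the highest, 22705. Cd63 was found in all 11 clusters. It was at 802 CPM (791 to 814) in cluster 7 (930 cells, led by Srgn and Rbp4), at 848 CPM (792 to 906) in cluster 10 (344 cells, Lama1 and Tinagl1), at 623 CPM in cluster 9 (657 cells, Rhox9 and Rhox6) and at 543 CPM in cluster 4. Levels were 319 to 495 CPM in the remaining 7 clusters, lowest in the cycling cluster 3 (Mki67). The thinned shares gave clusters 7, 10, 9 and 4 as highest too, at 56.3%, 46.3%, 43.6% and 41.9% against 29.2% to 38.3%. Clusters 7 and 10 stand in opposite order by CPM and by share, so no order is read between them. Both were also highest in extraembryonic endoderm genes, at 1358 and 3059 CPM against 78.6 to 631 CPM elsewhere; no doublet caller was run, and the part of doublets in the deep cluster 7 was not tested.

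Cd9 was more uneven than Cd63. It was at 556 CPM in cluster 9, 491 in cluster 10 and 281 in cluster 7, and at 18.7 to 121 CPM in the other clusters, with thinned shares of 37.2%, 29.6% and 22.7% against 1.67% to 11.2%. In clusters 2 (mesothelial-like) and 4 (interstitial-like) it was at 22.4 and 18.7 CPM. Cd82 was at 111 CPM (102.98 to 119) in cluster 9 and at 1.96 to 14.6 CPM in all others. Cd81 was lowest in cluster 9 at 148 CPM (139 to 158) and in cluster 8 (Cited1 and S100g) at 261. It was higher in cluster 5 (648), cluster 4 (606), cluster 6 (573, Gm20767 and Wfdc2) and cluster 2 (551). Cluster 5 is shallow, led by Gm26917 and Mir99ahg with mt-Cytb, mt-Nd4 and mt-Atp6 among its leading genes, and has a median of 15.8% mitochondrial UMIs. Its thinned share of cells with Cd81 (41.6%) was below those of clusters 4 (47.9%), 2 (45.0%) and 6 (42.3%), so no order is read among them. Cd151 lay between 36.4 CPM in cluster 8 and 98.8 in cluster 9.

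Thinned cells with and without a Cd63 UMI came from every cluster. Of the 4951 cells with one, 10.6% were of cluster 7, against 4.46% of the cells without, and the interstitial-like cluster 4 made up 13.1% against 9.91%. Mesothelial-like cells of cluster 2 made up 19.4% against 22.1%, cluster 1 made up 15.5% against 19.4% and cluster 3 made up 12% against 15.8%. A UMI count is not the surface stain used in the sort, and the labels name no CD63 sort before this library was made.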

How the data were processed

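Bulk RNA-seq was measured in 8 GSC libraries of 4 stages and in 31 libraries of treated ESCs, V580 days and E12.5_GC, and single-cell RNA-seq in 1 library of V580_D6. The authors aligned paired reads to mm10 with HISAT2 and deposited whole read counts per gene for the stages (featureCounts), FPKM values for the treated cells and E12.5_GC, and UMI counts per cell barcode for the 10x library (Cell Ranger); versions are not given in the sources used here. Submitters' processing notes also name Trim Galore, FastQC, SAMtools and RSEM. FPKM steps gave whole fragments, within 0.05, for 95.9% to 98.5% of low values, which puts depth at 16400000 to 28300000 fragments per library.

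Counts were tested with edgeR 4.0.16 (filterByExpr, TMM, quasi-likelihood, all 8 libraries; 16398 genes) and log2(FPKM + 1) with limma 3.58.1 (trend; genes with at least 1 FPKM in 3 libraries for the days and in 2 for the treatments), with Benjamini-Hochberg adjustment over all genes tested; calls are adjusted p below 0.05. DESeq2 1.42.0, other normalizations, filters and pseudocounts, a lane term, length offsets, a replicate block and leave-one-out fits were alternatives. Cells were clustered with scanpy 1.11.5 (2000 variable genes without the 7 members, 20 components, Leiden resolution 0.5), with no doublet caller. Scripts were tested on simulated data in which 100 genes changed 2-fold and 100 changed 4-fold. Of the 2-fold changes, 85% were recovered for E13.5 against E12.5. For V580_D6 against E12.5_GC and V580_48h against Con_48h 100% were. False calls were 4.64%, 8.26% and 6.10% of all calls in this order. In both FPKM comparisons this share lay above the 0.05 set for calls. Whether replicate numbers pair the libraries was checked: deviations of same-numbered stage libraries correlated at -0.0351 to 0.0549, so the numbers were not taken as pairs.

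The 7 genes and the lists were chosen with earlier results of these data known. Named genes are the 7 members, the 3 largest called changes of each list (1 of them is not reported here), and the 5 genes most like Cd63. Intervals cover counting error only. One table with 10 columns of values, whose names match no single sample, was not used.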

Additional observations from a re-analysis of the deposited data

Results flagged for a closer look

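Comparisons of the treatment effects over time, added after the data had been seen, differed between 24 h and 48 h for several members (interaction term, limma, adjusted over all 10644 genes tested). For AM580 against Con, the effect at 48 h minus that at 24 h was 0.34 ± 0.08 for Cd63 (log2; -0.27 at 24 h and 0.08 at 48 h, adjusted p = 0.00485) and 0.72 ± 0.08 for Cd9 (-0.12 and 0.60, adjusted p = 8.14e-06). It was 0.19 for Cd81, 0.25 for Cd151 and -0.38 for Cd37 (adjusted p = 0.0293, 0.0147 and 0.0312). For V580 against Con it was 0.21 for Cd9 (adjusted p = 0.0497) and -0.68 for Cd37 (0.53 and -0.15, adjusted p = 0.000901), while Cd63 gave 0.14 (adjusted p = 0.198). For Vc against Con no tested member passed this limma test (adjusted p from 0.0716 for Cd82 to 0.65 for Cd37). Of all genes tested, 3721 for AM580, 3612 for V580 and 309 for Vc passed it. Cd37 was near 0.3 FPKM at 48 h, where the log2(FPKM + 1) scale compresses changes.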

How the results depend on the processing

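Over the 85 fold changes of called members and of Cd63, 816 of 973 alternative values kept direction and call, 147 lost the call, 5 gained it and 5 reversed; the fold requirement below accounts for many of the lost calls. Reversed values were those of Cd63 at P6w against E12.5 (-0.38 with the lane term, -0.0082 with the gene length offset), from E13.5 to E16.5 (0.027 with the transcript length offset, chosen after seeing the data) and for Vc against Con at 24 h (-0.067 without Con_24h replicate 1 and -0.057 without Vc_24h replicate 1, within a range of -0.067 to 0.10 over the 4 libraries left out). The cause was not tested.

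Members called and at least 2-fold numbered 2, 3 and 3 at E13.5, E16.5 and P6w against E12.5, 1 and 0 from E13.5 to E16.5 and from there to P6w, 2, 1, 1 and 1 on days 4, 6, 8 and 10 against E12.5_GC, 1, 0 and 0 between days, 1 for Con_48h against Con_24h and 0 in all 8 treatment comparisons, with FPKM folds taken on the log2(FPKM + 1) scale. The counts that follow are of members called at any fold. From E13.5 to E16.5 the count was 4 with the lane term and 4 with the transcript length offset. With no filter on low values 4 and 5 members were called for days 8 and 10 against E12.5_GC. With all 31 libraries in one model it was 0 for Vc and AM580 at 24 h, for Vc at 48 h and for V580 against AM580 at 24 h, and 1 for AM580 at 48 h and for V580 against AM580 at 48 h. Quantile normalization gave 4 for AM580 at 48 h and 2 for V580 against AM580 at 24 h, and a pseudocount of 0.1 gave 1 for Vc at 24 h.

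Leaving out 1 library gave 4 to 5 called members at E13.5, 3 to 7 at E16.5 and 5 to 5 at P6w against E12.5, 2 to 4 from E13.5 to E16.5 and 3 to 5 from E16.5 to P6w. It gave 3 to 4, 3 to 4, 2 to 3 and 3 to 5 on days 4, 6, 8 and 10 against E12.5_GC, 3 to 4, 2 to 2 and 2 to 2 between days, and 4 to 6 for V580_D4 against V580_48h. At 24 h it gave 1 to 2 for Vc, 0 to 4 for AM580, 3 to 4 for V580 and 0 to 1 for V580 against AM580; at 48 h, 0 to 1, 2 to 2, 2 to 3 and 2 to 4; and 6 to 6 for Con_48h against Con_24h.

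With the replicate number as a block, all 85 fold changes kept direction and call. Deviations of same-numbered libraries correlated at -0.40 to 0.20 over 56 pairs of the treatments (12 over 0.1) and at -0.43 to 0.38 over 30 pairs of the days (9 over 0.1). They were over 0.1 for all 3 numbers between E12.5_GC and V580_D4, but not across the design, so the numbers were not taken as pairs; the blocked fit changed no call in that comparison either. The share of cells with a Cd63 UMI was 79.1% with at most 10% mitochondrial UMIs, 89.6% with at least 1000 genes and 35.2% after thinning, against 77.1%. Cd37 and Cd53 are limited by depth, with at most 220 reads in the 8 stage libraries and 198 estimated fragments in the others.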
